A study of Mus musculus with 2 samples.

Results

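The genes of the heat shock proteins and their cochaperones were examined in mouse hearts that overexpress miR-143 and miR-145. The members were all genes whose array symbol, old or current, begins with Hspa, Hspb, Hspd, Hspe, Hsph, Hsp90, Dnaja, Dnajb or Dnajc, or with Bag and a digit. This gave 75 of the 23473 probes, which stand for 72 genes, and 68 of these genes were measured in both channels of both arrays, out of 17485 genes or unnamed probes measured there. No probe is named Hspa1a, Hspa1b, Hsph1 or Hspe1 here, so the inducible Hsp70 genes themselves were not analysed.

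Three-month old transgenic (TG) hearts of line 9 (L9) and of line 19 (L19) were each set against a wild type, non-transgenic (NTG) heart of the same age on 1 two-colour Toray 3D-Gene Mouse Oligo chip 24 array, with the TG RNA in Cy3 and the NTG RNA in Cy5 on both. Both lines carry human pri-miR-143/145 under the αMHC promoter/enhancer, which drives the transgene in cardiomyocytes, and the male mice had been backcrossed from B6D2F1 founders to C57BL/6J. The design text of the series gives 1 transgenic and 1 control mouse to an array, while the paper's methods speak of an average over NTG control mice. Whether both arrays held RNA of the same control mouse is therefore not known. The NTG RNA bears a single label throughout and was counted as 1 control, and the dyes were not swapped, so that genotype and dye cannot be told apart.

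Heat shock proteins are chaperones that bind unfolded proteins and help them to fold, to assemble or to be degraded. Hsp70 (the Hspa genes) works in cycles of ATP binding and hydrolysis, J domain proteins (Dnaja, Dnajb and Dnajc) deliver substrates to it and stimulate its ATPase, and Hsp110-type proteins and Bag proteins exchange its nucleotide. Hsp90 takes over clients such as kinases and steroid receptors, Hsp60 folds proteins inside mitochondria, and the small heat shock proteins (Hspb), several of which are abundant in heart muscle, hold unfolded proteins and guard the sarcomere. Under proteotoxic stress heat shock factor Hsf1 switches on the cytosolic genes, and the unfolded protein response switches on those of the endoplasmic reticulum (ER).

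The promoters of the members were searched for the motifs of both programs, and a few matches are printed here so that they can be set beside the ratios of the same genes. RefSeq promoters (GRCm38.p6, 250 bases before to 50 bases after a start site) were matched by symbol for 58 of the 72 member genes. The 14 not matched were Hsp90aa1, Hsp90ab1, Hspa8, Hspa9, Hspa13, Hspb2, Bag4, Dnajc2, Dnajc5, Dnajc5b, Dnajc11, Dnajc12, Dnajc18 and Dnajc22. GAANNTTC or TTCNNGAA, paired repeats that are only a part of the heat shock element of Hsf1, were searched. Each reads the same on both strands, and they may overlap. Such a match was present in 13 of these 58 genes (22.4%), against 17.0% of all 27025 genes with a promoter, so that the share of the members is near that of all genes. The capitals mark the matches in the 6 stretches that follow, each given 5′ to 3′ on the strand of its gene.
Hspd1, chr1:55088053-55088082, minus strand: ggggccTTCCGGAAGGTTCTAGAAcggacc
Hspb1, chr5:135887801-135887830, plus strand: aGAAGTTTCcagatgggggcaGAACCTTCc
Dnaja1, chr4:40722333-40722362, plus strand: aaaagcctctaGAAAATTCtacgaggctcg
Dnajb4, chr3:152193841-152193870, minus strand: ttcgttcgctgTTCTAGAAagtacagagac
Dnajc10, chr2:80315273-80315302, plus strand: aacaattttatTTCTAGAAaactttaatta
Dnajc27, chr12:4082350-4082379, plus strand: cacccatcggtGAAGATTCcaggaaaaaaa

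In Hspd1 3 matches overlap, which was seen in 0.256% of all 32851 promoters for 3 or more matches in any arrangement. The match of Dnajb4 begins 14 bases before the start site, that of Dnaja1 124 bases, that of Dnajc10 182 bases and that of Dnajc27 213 bases before it. The ER stress element, CCAAT and CCACG with 9 bases between them, was searched on both strands, a search chosen after values were seen. The element is a motif of the program that switches on ER chaperone genes, so a higher share among the members is no test of them. It was found in 3 of the 58 member genes (5.17%), against 0.137% of all genes. All 3 encode chaperones or cochaperones of the ER, and the capitals again mark the match, which for the stretch of Hsp90b1 nearer the start site lies on the other strand.
Hspa5, chr2:34772020-34772048, plus strand: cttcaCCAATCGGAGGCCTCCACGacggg
Hsp90b1, chr10:86705633-86705661, minus strand: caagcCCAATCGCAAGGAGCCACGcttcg
Hsp90b1, chr10:86705528-86705556, minus strand: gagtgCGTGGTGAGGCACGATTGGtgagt
Dnajc3, chr14:118937822-118937850, plus strand: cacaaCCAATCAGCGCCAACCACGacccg

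Signals are given after the blank spots of the array were subtracted, with the TG channel divided by the array's median ratio of Cy3 to Cy5. They were not scaled between arrays. The NTG signal on the L19 array over that on the L9 array had a median log2 ratio of 0.11 over all features and 0.15 over the members. Readings compared across the 2 arrays carry this shift. Ratios are TG over NTG on the log2 scale, where 0.58 is the study's cutoff of 1.5-fold. As a whole the members lay close to NTG. Their median log2 ratio was 0.07, with -0.00 in L9 and 0.06 in L19, against -0.01 over all 17485 features. Above NTG in both lines were 27 of 68 members, against 35.5% of all features, and 25 were below in both, against 38.4% of all. These directions depend on the background correction. After another one (normexp, offset 50), which raises bright spots, 17 of these 25 members had a mean above NTG, and 51 members in all were above NTG in both lines. Of all 17485 features 7036 were then above NTG in both lines. In the upper 50% of signal it was 6055 of all 8743 features there, against 49 of the 59 members. After normexp followed by loess within each array, 5 of the 25 members had a mean above NTG, and 1 of the 27 had a mean below it. After loess alone both counts were 0. The brightest 10% of all features had a median log2 ratio of 0.53 after normexp and 0.08 after normexp followed by loess. Over 1.5-fold in both lines were 3 members, Dnajc10, Hsp90aa1 and Hspa4l, and under 1/1.5 in both were another 3, Dnajc12, Dnajc27 and Dnajb5 (probes M300005432, M400000451, M200001614, M200007234, M300002310 and M200003897 in this order). The background was 5.2% of features over and 3.03% under, so that 4.41% of members in either direction is near what all features show.

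**Figure D1:**
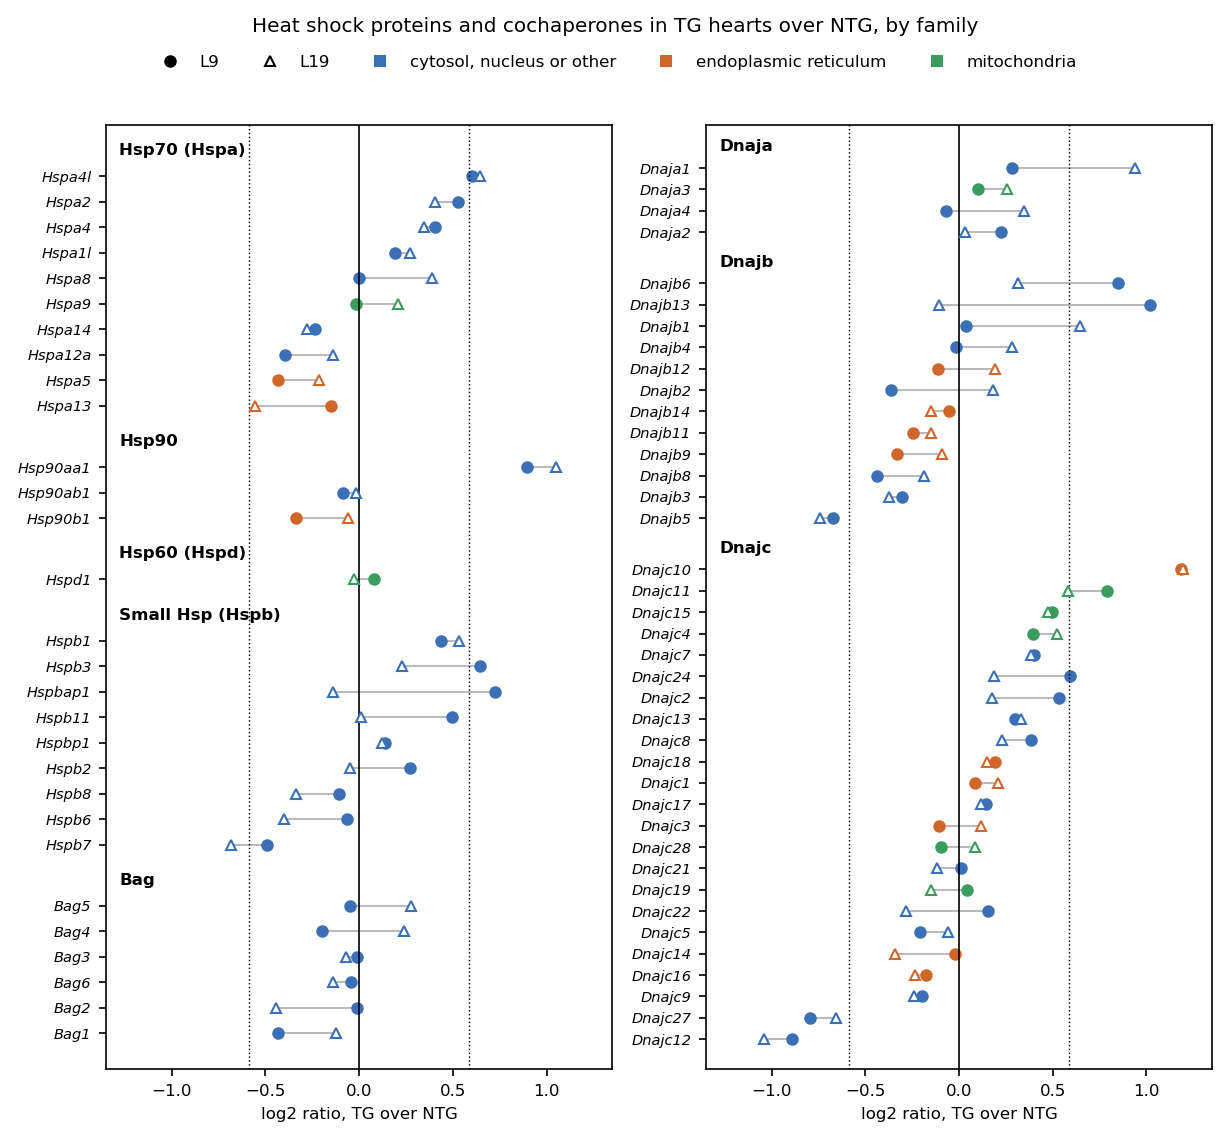
The log2 ratio of TG over NTG on the x axis for the 68 measured members, grouped by family. Filled circles are L9 and open triangles L19, 1 array each, colours give the compartment of the protein, and dotted lines mark 1.5-fold in either direction. Most members lie between the dotted lines, and Dnajc10, Hsp90aa1, Hspa4l, Dnajb5, Dnajc27 and Dnajc12 have both symbols outside them.

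In limma, with Benjamini-Hochberg adjustment over all 17485 features, no member passed an adjusted p of 0.05, nor did any other feature, and the lowest adjusted p was 0.086. At an unadjusted p under 0.05, 12 members were higher and 5 lower, against 15.7% and 14.4% of all features. When limma was run with a signal trend and robust estimation, 13 members were higher and 5 lower at an adjusted p under 0.05 (19.1% and 7.35% of members), against 10.4% and 9.57% of all features. All 18 were in the upper 50% of signal, where 22.0% and 8.47% of the 59 members there compare with 15.2% higher and 15.2% lower among all features. The test takes L9 and L19 as 2 replicates of the transgene and sees neither how NTG mice vary nor a bias of the dyes. Since each line is 1 array, a difference between the lines has no test.

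**Figure D2:**
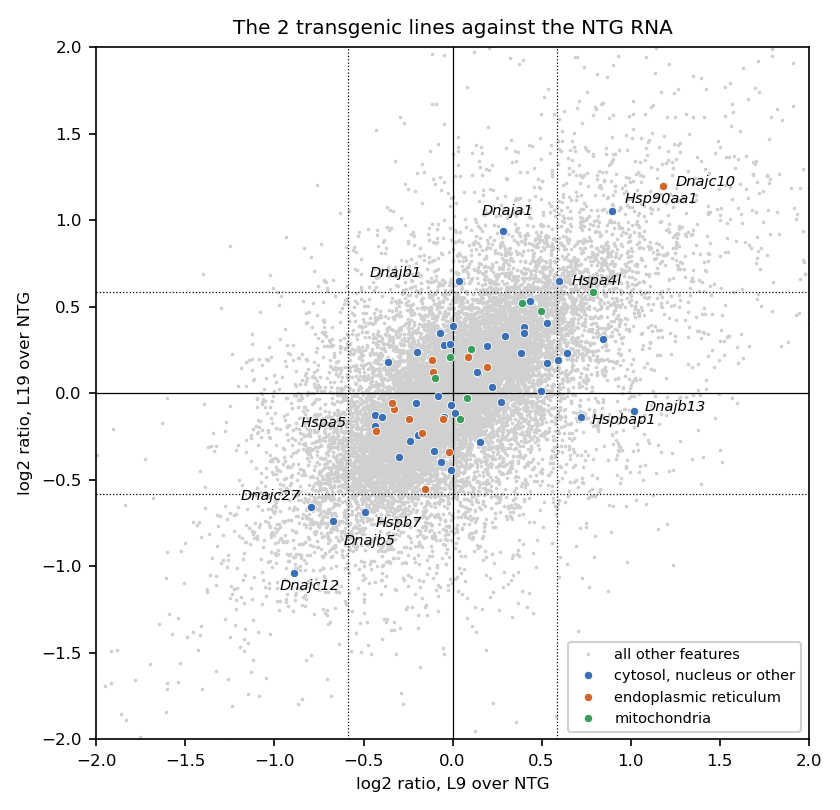
The log2 ratio of L9 over NTG on the x axis and of L19 over NTG on the y axis, for all measured features in grey and for the 68 members coloured by compartment. Dotted lines mark 1.5-fold, features beyond 2 on either axis are not drawn, and the NTG RNA of both axes bears the same label. The members lie within the cloud of all features, with Dnajc10 and Hsp90aa1 at its upper right and Dnajc12 at its lower left.

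Of the 3 Hsp90 genes 1 was over 1.5-fold in both lines and the others were slightly below NTG. Hsp90aa1 encodes the stress-inducible Hsp90 of the cytosol. Its signal was 2670 in L9 and 3260 in L19 hearts, against 1430 and 1580 in the NTG channel of the same arrays. Both TG readings were above both NTG readings, and the log2 ratio was 0.97 ± 0.11 (SD, n = 2 lines, as for each value below), or 1.96-fold (limma, adjusted p = 0.086, and 8.1e-04 with trend and robust estimation). Hsp90ab1, the constitutive cytosolic Hsp90, read 2120 in L9 and 2350 in L19 hearts, against 2250 and 2370 in NTG, and its log2 ratio was -0.05 ± 0.05. Hsp90b1, the Hsp90 of the ER (Grp94), read 1310 and 1830, against 1660 and 1900 in NTG, at -0.20 ± 0.20. The difference between the family members was not tested. After normexp Hsp90aa1 was at 1.33 (1.34 in L9 and 1.32 in L19) and Hsp90ab1 at 1.10 (0.43 in L9 and 1.76 in L19). Hsp90b1 was then at 0.28, and the brightest 10% of all features had a median of 0.53.

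In the Hsp70 family the cytosolic genes of the Hsp110 type lay above NTG and the ER genes Hspa5 and Hspa13 below, though these ER genes were at 0.12 and 0.03 after normexp. Of 10 genes, 4 were above NTG in both lines and 4 below, with a median log2 ratio of 0.15, and Hspa8 was level with NTG in L9 and above it in L19. Hspa4l, an Hsp110-type nucleotide exchange factor, read 167 in L9 and 186 in L19 hearts, against 110 and 119 in NTG, and its log2 ratio was 0.62 ± 0.03 (1.54-fold; limma, adjusted p = 0.092, and 0.0050 with trend and robust estimation). Both TG readings exceeded both NTG readings, and after normexp followed by loess the ratio was 0.42. Its relative Hspa4 was at 0.37 ± 0.04 and Hspa2, an Hsp70 best known from the testis, at 0.47 ± 0.09, both above NTG in both lines and within 1.5-fold.

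Hspa8, the constitutive Hsp70 of the cytosol, had about the same signal in TG and NTG on the L9 array and more in TG on the L19 array. It read 8550 in L9 and 14100 in L19 hearts, against 8550 and 10800 in NTG, at log2 ratios of 0.00 and 0.39 (mean 0.91 after normexp). By its sign alone it is among the 27 members counted above NTG in both lines. Its other probe gave 0.06 and 0.46. Many processed copies of this gene exist in mammalian genomes, and probe sequences were not used here, so that signal from such copies cannot be told apart. Hspa9, the mitochondrial Hsp70, read 921 and 1420, against 931 and 1230 in NTG (0.10 ± 0.16). Hspa1l was at 0.23 ± 0.06, Hspa14, which acts at the ribosome, at -0.26 ± 0.03, and the distant relative Hspa12a at -0.27 ± 0.18.

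Of 13 ER members measured, 8 were below NTG in both lines and 3 above, with a median log2 ratio of -0.18, though it was 0.15 after normexp, where all features in the upper 50% of signal had a median of 0.21. Hspa5 (BiP), the Hsp70 of the ER and a main target of the unfolded protein response, read 1590 in L9 and 2400 in L19 hearts, against 2150 and 2790 in NTG. On each array the TG channel was below the NTG channel, but the L19 reading of TG was above the L9 reading of NTG. The log2 ratio was -0.32 ± 0.15 (limma, adjusted p = 0.18, and 0.037 with trend and robust estimation), and 0.12 after normexp. Dnajb9 and Dnajb11, J proteins that work with Hspa5, were at -0.21 ± 0.17 and -0.20 ± 0.07. Hspa13, another Hsp70-like protein of the ER, was at -0.35 ± 0.29 from dim spots, with TG signals of 17.4 and 14.4 against 19.4 and 21.2 in NTG. The other ER members outside Dnajc10 lay between -0.20 (Dnajc16) and 0.17 (Dnajc18). Dnajc3 (p58IPK), which like Hspa5 and Hsp90b1 carries the ER stress element printed above, was at 0.01 ± 0.16. The 3 genes with that element thus ranged between -0.32 and 0.01.

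Dnajc10 went the other way and had the highest blank-subtracted ratio of all members, though 7 members were above it after normexp and 5 after normexp followed by loess. It encodes ERdj5, which joins a J domain to thioredoxin-like domains and reduces disulfide bonds of misfolded proteins in the ER. Its signal was 123 in L9 and 134 in L19 hearts, against 54.3 and 58.3 in NTG. The TG readings were more than 2-fold above both NTG readings. The log2 ratio was 1.19 ± 0.01, or 2.28-fold (limma, adjusted p = 0.086, and 7.0e-04 with trend and robust estimation), and it was 0.86 after normexp.

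A list of 23 other ER folding partners and unfolded protein response genes gave 22 measured genes, of which 10 were below NTG in both lines and 5 above, with a median of -0.09 (0.18 after normexp). The median was -0.20 in L9 and 0.04 in L19. Of the 22 genes 18 had the higher ratio in L19, against 49.5% of all features, and this line difference was not tested. Pdia6, a protein disulfide isomerase, was the gene of this list under 1/1.5 in both lines. It read 291 and 380 in TG, against 488 and 578 in NTG (-0.68 ± 0.10, and -0.29 after normexp), and no gene of the list was over 1.5-fold in both.

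**Figure D3:**
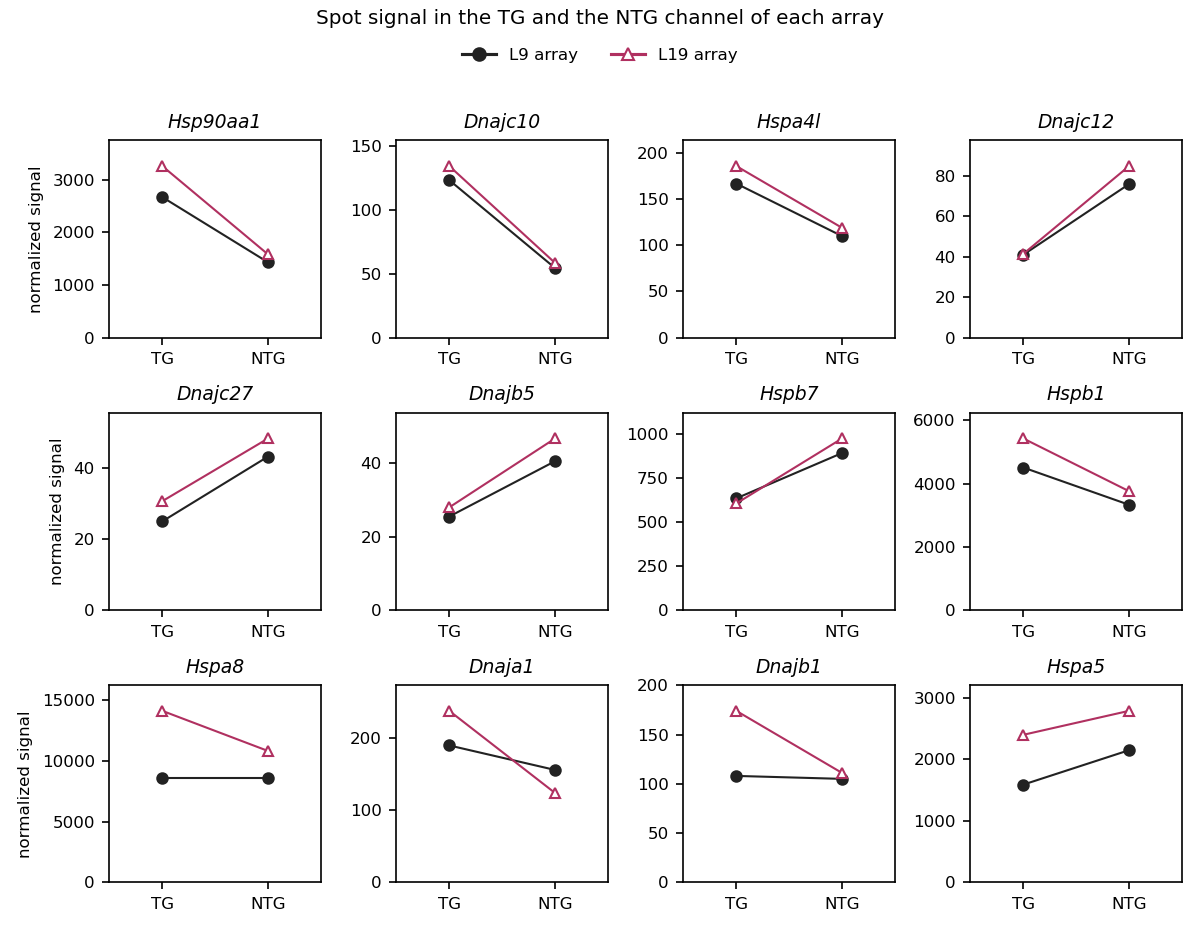
Normalized spot signal on the y axis, starting at 0, in the TG and the NTG channel of the L9 array (filled circles) and the L19 array (open triangles) for 12 members, with a line joining the channels of each array. For Hsp90aa1, Dnajc10 and Hspa4l both TG points lie above both NTG points, for Dnajc12, Dnajc27, Dnajb5 and Hspb7 they lie below, and for Hspa8 and Dnajb1 the channels differ mainly on the L19 array.

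The 3 members under 1/1.5 in both lines were all J domain proteins outside the ER and mitochondria. Dnajc12, a cochaperone of the aromatic amino acid hydroxylases, read 40.9 in L9 and 41.3 in L19 hearts, against 75.8 and 84.7 in NTG. Its log2 ratio was -0.96 ± 0.10, or 0.513 of NTG (limma, adjusted p = 0.086, and 0.0019 with trend and robust estimation). Dnajc27, a Rab-like GTPase with a J domain, read 25.0 and 30.7, against 43.3 and 48.4 in NTG (-0.73 ± 0.10, trend and robust estimation in limma, adjusted p = 0.0079). Dnajb5, which in cardiomyocytes binds thioredoxin and the histone deacetylase HDAC4, read 25.5 and 28.0, against 40.6 and 46.8 in NTG (-0.71 ± 0.05, trend and robust estimation in limma, adjusted p = 0.0086). For each of the 3 genes both TG readings were below both NTG readings. After normexp they were at -0.34, -0.28 and -0.31 and no longer past 1/1.5, where only 0.12% of all features were then.

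The other J domain proteins spread on both sides of NTG. Of 4 Dnaja genes 3 were above NTG in both lines and none below, of 12 Dnajb genes 2 were above and 6 below, and of 23 Dnajc genes 12 were above and 6 below. Their medians were 0.16, -0.10 (0.14 after normexp) and 0.13. Dnajb6, a suppressor of protein aggregation, was at 0.85 in L9 and 0.31 in L19, with TG signals of 22.1 and 21.2 against 12.3 and 17.1 in NTG, so that most of this gap between the lines lay in the NTG channel. Dnajc7, a J protein that also binds Hsp90 through TPR repeats, was at 0.39 ± 0.01, and Dnajc13, which acts in endosomes, at 0.31 ± 0.02 with its brighter probe. Dnaja2 was at 0.13 ± 0.13, Dnajb2 at -0.09 ± 0.39, Dnajb3 at -0.34 ± 0.05 and Dnajb8 at -0.31 ± 0.17. These genes stayed within 1.5-fold in at least 1 line. So did the remaining Dnajc genes not assigned to the ER or mitochondria, which lay between -0.22 (Dnajc9) and 0.39 (Dnajc24).

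Dnaja1 and Dnajb1, the main Hsp40 partners of cytosolic Hsp70 and both known heat shock genes, had higher ratios in L19 than in L9. Dnaja1 read 190 in L9 and 238 in L19 hearts, against 156 and 124 in NTG, at log2 ratios of 0.28 and 0.94. Dnajb1 read 108 and 174, against 105 and 111 in NTG, at 0.04 and 0.65. The TG signal of L19 over that of L9 was 1.25 for Dnaja1 and 1.62 for Dnajb1, and the NTG signal on the L19 over that on the L9 array was 0.796 for Dnaja1 and 1.06 for Dnajb1, so that for Dnaja1 the change of the NTG channel between arrays made part of the gap.
The same order of lines, named after the values were seen, was present in Hspa8, Dnaja4 (-0.07 and 0.35 in L9 and L19) and Dnajb4 (-0.02 and 0.28). For Dnajb4 the TG signals were 954 and 961, against 964 and 791 in NTG. Over all 68 members 31 had the higher ratio in L19, against 49.5% of all features, and the median of L19 minus L9 was -0.03. Of the members with a matched promoter, those with the heat shock motif (12 measured) had the higher ratio in L19 in 6 cases, with a median of -0.02 for L19 minus L9, against -0.02 for the 43 without it. Their median mean log2 ratio was 0.14, against 0.01 for those without it. Dnajb1, though a known heat shock gene, was among the 43 without a match. Of 18 immediate early genes, which respond within minutes to stress and handling, 13 had the higher ratio in L19, and their median was -0.13 in L9 against 0.29 in L19. Their part in the line difference of these chaperones was not tested.

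In mitochondria 4 of 8 members were above NTG in both lines and none below, with a median of 0.14 (0.59 after normexp). Dnajc11, which takes part in the organization of the inner membrane, was the nearest to the cutoff among those that did not pass it in both lines. It read 243 in L9 and 256 in L19 hearts, against 141 and 171 in NTG, and its log2 ratios were 0.79 and 0.58 (0.69 ± 0.15, limma, adjusted p = 0.093, and 0.0046 with trend and robust estimation). Dnajc15, a J protein of the import motor and regulator of complex I, was at 0.49 ± 0.01, with TG signals of 1280 and 918 against 907 and 661 in NTG, and Dnajc4 was at 0.46 ± 0.09. After normexp Dnajc15 was at 1.54 and Dnajc4 at 1.02, and after normexp followed by loess they were at 1.14 and 0.64. Hspd1, the mitochondrial Hsp60 with the overlapping heat shock motifs printed above, read 4090 and 3270, against 3870 and 3330 in NTG (0.03 ± 0.08). Dnajc19, a part of the import motor whose loss causes dilated cardiomyopathy in people, was at -0.05 ± 0.14, Dnaja3 (Tid1) at 0.18 ± 0.11 and Dnajc28 at -0.01 ± 0.13. Of 13 other mitochondrial chaperones and proteases measured, 4 were above NTG in both lines and 8 below, and none was past 1.5-fold in both. Their median was -0.07, but 0.30 after normexp, where all 13 had a mean above NTG. So had 7082 of the 8743 features in the upper 50% of signal and 8934 of all 17485 features.

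Among the small heat shock proteins Hspb1 was above and Hspb7 below NTG in both lines. Of the 9 genes with the Hspb prefix that were measured, 4 were above NTG in both lines and 3 below, with a median of 0.13. Hspbp1 and Hspbap1 share the prefix but encode binding proteins of other kinds, and the median was 0.11 without them. The median of all 9 genes was 0.27 in L9 and -0.05 in L19, both being the values of Hspb2, and 2 of the 9 genes had opposite signs in the lines. Of the 9 genes 1 had the higher ratio in L19, against 49.5% of all features, and this was not tested. Hspb1 (Hsp25 in mice), the broadly expressed and heat-inducible member, read 4510 in L9 and 5430 in L19 hearts, against 3330 and 3760 in NTG, at 0.48 ± 0.07 (limma, adjusted p = 0.11, and 0.0067 with trend and robust estimation), and at 1.11 after normexp. Hspb7, found mainly in heart and skeletal muscle, read 635 and 606, against 893 and 976 in NTG, at -0.59 ± 0.14 (limma, adjusted p = 0.10, and 0.0054 with trend and robust estimation, and -0.18 after normexp). For Hspb1 both TG readings were above both NTG readings, and for Hspb7 both were below.
Hspb6 (Hsp20), a target of protein kinase A in heart, read 2200 and 1670, against 2300 and 2200 in NTG (-0.23 ± 0.23). Hspb8, the partner of Bag3, read 3240 and 2940, against 3480 and 3710 in NTG (-0.22 ± 0.16). The muscle genes Hspb2 and Hspb3 were at 0.11 ± 0.23 and 0.44 ± 0.29, and Hspb11, a protein of intraflagellar transport, at 0.25 ± 0.34. After normexp Hspb6 was at 0.35, Hspb8 at 0.50, Hspb2 at 0.49 and Hspb3 at 0.60, so that of the muscle genes with the Hspb prefix Hspb7 alone was then below NTG. Cryab, the αB-crystallin, which belongs to the same protein family under another name, was at -0.42 ± 0.07, with TG signals of 233 and 254 against 323 and 330 in NTG, and at 0.16 after normexp. In the same hearts 8 of 16 cardiomyocyte markers were below NTG in both lines and 5 above, with a median of -0.15 (0.40 after normexp), and their part in the values of Hspb7 and Cryab was not tested. In whole hearts fewer cells of a type and less RNA in each cell cannot be told apart.

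None of the 6 Bag genes was above NTG in both lines, 4 were below, and all lay within 1.5-fold, with a median of -0.07 (0.24 after normexp). Bag3, which with Hspb8 and Hspa8 hands damaged sarcomere proteins to autophagy and which is mutated in some dilated cardiomyopathies, read 687 in L9 and 580 in L19 hearts, against 693 and 608 in NTG (-0.04 ± 0.04). Bag1 was at -0.28 ± 0.22, Bag2 at -0.23 ± 0.31, Bag4 at 0.02 ± 0.31, Bag5 at 0.11 ± 0.23 and Bag6, which captures misplaced membrane proteins, at -0.09 ± 0.07. In the list of that selective autophagy pathway 4 of 7 measured genes were above NTG in both lines and 2 below. Sqstm1, the p62 cargo receptor, was the gene of this list over 1.5-fold in both lines, at 1540 and 1550 in TG, against 866 and 924 in NTG (0.79 ± 0.06, and 1.78 after normexp). Stub1, the ubiquitin ligase CHIP that binds Hsp70 and Hsp90, was at -0.08 ± 0.09.

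Among the regulators and partners outside these families, Hsf1, the factor of the heat shock response, read 57.4 in L9 and 62.3 in L19 hearts, against 70.8 and 73.5 in NTG (-0.27 ± 0.04). Hsf2 was at 0.83 ± 0.18 and Hsf4, the lens factor, at 0.92 ± 0.20, but both from dim spots, with Hsf2 at 10.2 and 9.94 against 5.26 and 6.09 in NTG. After normexp Hsf2 was at 0.03 and Hsf4 at -0.30. Of 5 genes measured in this list of factors and their binding proteins 3 were above NTG in both lines and 2 below. Of 27 other Hsp70 and Hsp90 cochaperones measured, 13 were above NTG in both lines and 8 below, with a median of 0.05. Hscb, the J protein of iron-sulfur cluster assembly, was over 1.5-fold in both lines (0.70 ± 0.14). Fkbp4, the immunophilin FKBP52 of Hsp90 complexes with steroid receptors, was under 1/1.5 in both, at 919 and 1140 in TG, against 1690 and 1870 in NTG (-0.79 ± 0.12, but 0.23 after normexp). Of 11 genes of the TRiC chaperonin and prefoldin, which fold actin and tubulin, 6 were above NTG and 2 below in both lines, and none was past 1.5-fold in both.

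**Figure D4:**
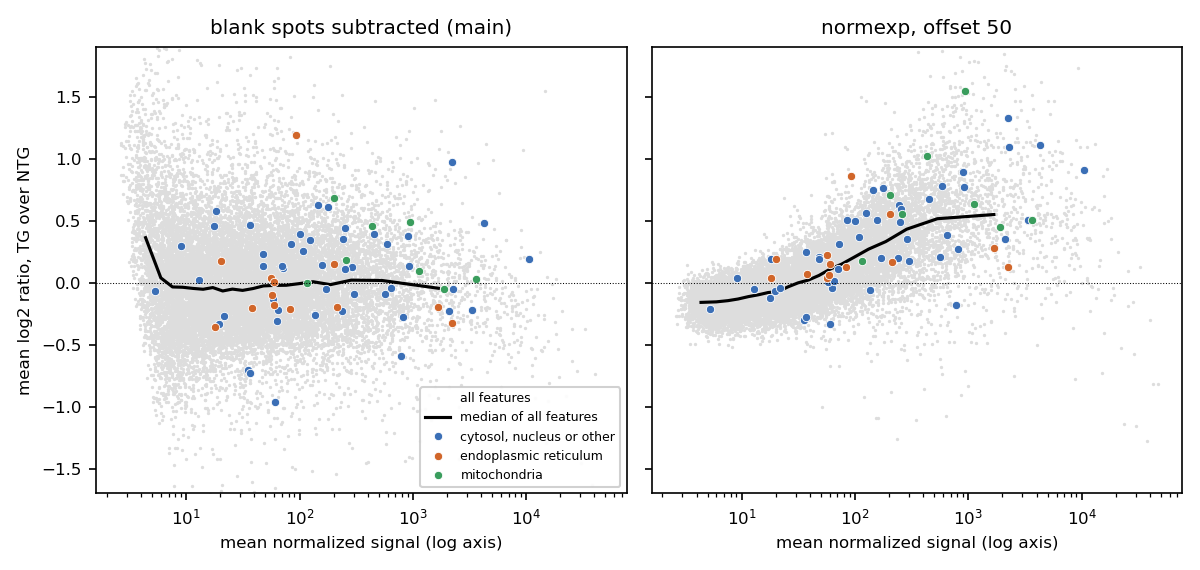
The mean log2 ratio of TG over NTG on the y axis against the mean normalized signal on a log x axis, for all features in grey and members coloured by compartment, with the blank spots subtracted on the left and after normexp with offset 50 on the right. The black line is the median of all features in 20 bins of signal, and features outside the y range are not drawn. On the right the line rises with signal, and the members, 86.8% of which are in the upper 50% of signal, lie higher there than on the left.

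Other cell types were followed beside the members. Of 13 fibroblast markers 12 were above NTG in both lines and none below, their median being 0.90 in L9 and 0.62 in L19, with a summed signal of 13600 and 14900 in TG, against 7630 and 9470 in NTG. Of 12 endothelial markers none was above NTG in both lines and 7 were below, with a median of -0.28 (0.05 after normexp). For 9 lymphocyte markers the summed signal was 82.3 and 70.8 in TG, against 66.9 and 71.4 in NTG, and 1 of them was not above background in any channel. The cardiomyocyte markers summed to 122000 and 138000 in TG, against 173000 and 181000 in NTG, and all 16 of them on the array were measured in every channel. The part of fibroblast RNA in the ratios of the broadly expressed members, such as Hspb1 and Hsp90aa1, was not tested.

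The remaining 4 member genes were not measured in both channels of both arrays. Dnajc5b was not well above background in any channel, and Dnajc6, a clathrin-uncoating cochaperone known from neurons, in the NTG channels only, where on the L19 array NTG was at least 1.23-fold above TG. Dnajc5g and Hspb9, both known from the testis, had only the NTG channel above background on the L9 array and were measured on the L19 array, at log2 ratios of 1.06 and 0.96 from TG signals of 5.75 and 4.13 against 2.76 and 2.12 in NTG. These signals lay near the lowest detected, 3.24 in the TG and 1.40 in the NTG channel of that array.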

How the data were processed

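Total RNA of L9, L19 and NTG hearts was labeled after aRNA amplification and hybridized to 2 arrays, 1 per line. The authors' scanner files hold the raw intensity of each spot per channel as the Toray scanner software wrote it. Also deposited were log2 ratios scaled to a median Cy3 to Cy5 ratio of 1, which were recomputed here within 0.001 for all but 1 probe of each array (18441 ratios in L9 and 18824 in L19), so that their scale, centring and direction are known. In each channel the mean of 2736 blank spots, trimmed by 5% at each end, was subtracted, and a probe was detected above that mean plus 2 SD. For these blank-subtracted values the local background of the spots was not subtracted. In the normexp settings the background was corrected by that method instead. Normexp values thus differ from the others in how background was removed, and not in the offset alone. Spots marked bad (9 and 3) gave no ratio. The median Cy3 to Cy5 ratio before scaling was 2.02 in L9 and 1.83 in L19. The number of arrays limits the precision.

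Platform symbols were used as given where current (12622) or unmatched (62), and 3947 were replaced by the RefSeq symbol (GRCm38.p6) for which they are the synonym of a single gene. The probe with the highest mean signal, among those measured in both lines, stood for a gene. The mean log2 ratio of both lines was tested against 0 by lmFit and eBayes of limma 3.58.1 (R 4.3.3) with Benjamini-Hochberg adjustment over all features, and the step was tested on simulated data. The members, families, compartments and 18 other gene lists were chosen with earlier results of these data known. Signals are given for members past 1.5-fold in both lines and for the main inducible and constitutive chaperones. From other lists up to 4 genes past the cutoff in both lines were open to naming, with Hsf1, Hsf2, Cryab and Stub1. Any further gene was picked with its values in view. Alternatives were normexp with an offset of 50, loess within each array, the deposited ratios, the upper 50% of signal, the mean of a gene's probes, each line left out, a 2-fold cutoff, and limma with trend and robust estimation. Normexp followed by loess and the search for the ER stress element were chosen after values were seen.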

Additional observations from a re-analysis of the deposited data

Results flagged for a closer look

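Dnajb13 and Hspbap1 lay past 1.5-fold in L9 and on the other side of NTG in L19, and the difference between the lines was not tested. Dnajb13, an axonemal J domain protein known from cilia and sperm, was at 1.02 in L9 and -0.10 in L19 on the log2 scale. Its signal was 6.70 in L9 and 29.4 in L19 hearts, against 3.30 and 31.6 in NTG, so that the NTG channel, which holds RNA of the same label on both arrays, differed 9.55-fold between them. Hspbap1 was at 0.72 in L9 and -0.14 in L19, with signals of 11.6 and 8.37 in TG, against 7.03 and 9.23 in NTG. After normexp the mean log2 ratios were -0.12 and 0.04.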

How the results depend on the processing

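The count of members over 1.5-fold in both lines was 12 after normexp with an offset of 50, which raises bright spots, against 4.9% of all features. It was 3 after normexp followed by loess, against 1.06% of all features. The count was 1 at a 2-fold cutoff, and between 5 and 9 when 1 line was left out (9 in L9 alone). The count under 1/1.5 was 0 after normexp (0.12% of all features) and 0 after normexp followed by loess (0.509%). It was 0 at 2-fold, and between 3 and 4 when 1 line was left out. For the 2-fold cutoff and for single lines no share over all features is given here. The members over 1.5-fold were Hsp90aa1, Dnajc10 and Hspa4l under loess, the deposited ratios, the upper 50% of signal and the mean of probes, and normexp kept these 3 and added 9. After normexp followed by loess 2 of them were kept and Dnajc15 was added, with Hspa4l at 0.42. The median log2 ratio of the members was 0.26 after normexp, where the median of all features in the upper 50% of signal was 0.21, -0.0044 with L9 alone and 0.0605 with L19 alone. Members called by limma were 29 after normexp (19.2% of all features called), 10 after normexp followed by loess (4.52%), 14 within the upper 50% of signal (28.5%), 18 with trend and robust estimation, and 17 at an unadjusted p under 0.05. The cause of these changes was not tested. The shares over all features after normexp are not matched for signal. Of the members 86.8% were in the upper 50% of signal, where 7082 of 8743 features had a mean above NTG after normexp. Of 19 named members, normexp moved 17 by more than the SD between lines (all but Dnaja1 and Dnajb1), and it put Dnajc12, Dnajc27 and Dnajb5 inside the cutoff. Each ratio sets TG against NTG on the same array, so the test is paired by array. No further blocking was possible because each line is 1 array. Signals near the blank spots limit Dnajb13, Hspbap1, Dnajc22, Hsf2 and Hsf4.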
